A study of Mus musculus with 27 samples.

Results

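The colonic epithelium of male C57BL/6 mice given 30 μg/kg TCDD was compared with that of mice given 3 μg/kg, across all genes. These were 6 of the 27 libraries of the series, 3 per dose, and 1 library was made from 1 mouse. TCDD is a chlorinated dioxin that persists in the environment and in body fat. All mice were dosed by oral gavage every 4 days, 7 gavages in all, from 28 days of age, and were killed on day 28 of treatment at 56 days of age. The mice at 3 μg/kg were replicates 49, 51 and 52, and those at 30 μg/kg replicates 65, 66 and 67. The series also holds a sesame oil vehicle group and 6 further doses between 0.01 and 10 μg/kg, and its aim was a dose response of the gut to TCDD. Mice carried no transgene or deletion, and whether mice of a group shared a cage or a litter is not stated in the sources used here. The p-values therefore rest on the spread between mice as they were housed, taken over all 27 libraries of the fit and not over the 6 alone. The samples were scrapings of the epithelium, which can hold blood vessels, immune cells, muscle and fat along with the epithelial cells.

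TCDD acts through AhR, the aryl hydrocarbon receptor, a transcription factor that its ligands switch on. In its resting state AhR sits in the cytosol with HSP90 and the cochaperone p23. On ligand binding it enters the nucleus, pairs with ARNT and binds dioxin response elements, whose core letters are GCGTG. Its best known targets encode enzymes that oxidize or conjugate foreign compounds, together with its own repressors AHRR and TIPARP. In the gut it is also known for its part in epithelial and immune homeostasis, where its ligands include dietary indoles and microbial tryptophan products.

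Taken in order of mouse number, the barcodes of the libraries begin to repeat part way through the series. The libraries from there on are called the second index set here, and those before it the first. Both groups lay in the second set, so the comparison does not cross index sets, whereas vehicle-treated mice lay in the first. What the 2 sets stand for is not stated in the sources used here. Counts on genes ranged from 10918695 to 12856510 per library at 3 μg/kg and from 11534463 to 13887966 at 30 μg/kg. The goblet cell genes (Muc2, Fcgbp, Zg16 and others) summed to between 52140 and 65100 CPM (gene counts scaled to a common library total) in the 6 libraries, and the mature colonocyte genes (Car1, Slc26a3 and others) to between 23820 and 29350 CPM, and these markers of the labelled tissue were thus abundant in all 6. No pair of libraries within a group agreed within sampling noise, since the lowest chi-square divided by its degrees of freedom was 5.35. Replicate 66 at 30 μg/kg stood apart on the second principal component of the 6 libraries (25.9% of the variance, a score of -44.95 against -0.91 to 20.6 for the other 5), and in 47 of the 76 genes that passed the test it was the 30 μg/kg library farthest from the 3 μg/kg group. Levels are given in CPM after scaling of the library sizes by TMM, and they compare libraries for 1 gene and not genes with each other.

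Of the 16496 genes tested, 76 (0.461%) differed between 30 and 3 μg/kg TCDD by at least 1.5-fold with an adjusted p below 0.05 (edgeR's quasi-likelihood test, Benjamini-Hochberg adjustment, with the standard error of a log2 fold change given as SE). These genes are referred to as called. Induction was called for 36 genes (0.218%) and repression for 40 (0.242%). The 3 largest rises were those of the AhR targets Cyp1b1, Cyp1a1 and Ahrr, and the largest fall at a mean of at least 1 CPM was that of the protocadherin gene Pcdh17. Most changes were small, the median being 1.15 on the log2 scale for the called rises and -1.05 for the called falls, and with 21 rises and 23 falls of at least 2-fold. Only 4 rises and 2 falls reached 8-fold, and 1 of these falls, that of Tmem229a, rested on 6 to 8 counts per library at 3 μg/kg and 0, 0 and 2 counts at 30 μg/kg. The median over all genes tested was 0.0025 on the log2 scale after the TMM scaling. That scaling places most genes near 0, so the median cannot show whether the libraries as a whole were level.

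**Figure D1:**
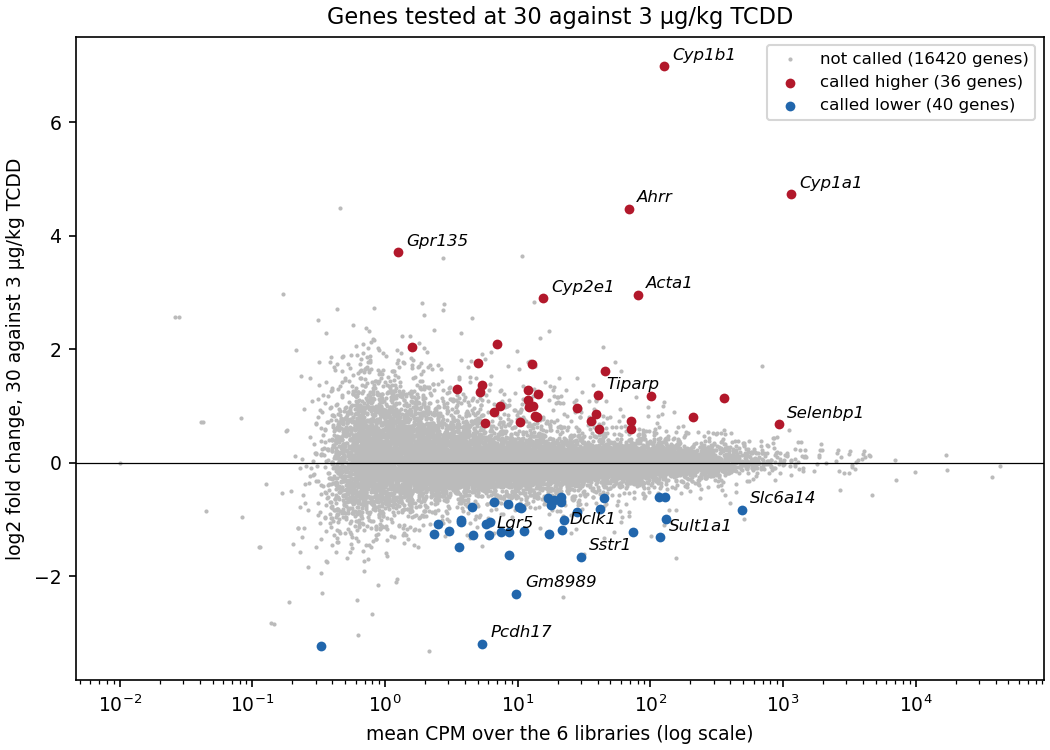
Log2 fold change of 30 against 3 μg/kg TCDD (vertical axis) against the mean CPM of the 6 libraries (horizontal axis, log scale) for the 16496 genes tested, with genes called higher in red (36), genes called lower in blue (40) and all others in grey. Any gene with a mean below 0.01 CPM is drawn at 0.01, and Cyp1b1, Cyp1a1 and Ahrr stand above all other called genes.

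In 74 of the 76 called genes the CPM of the 3 mice at 30 μg/kg lay wholly outside the range of the 3 mice at 3 μg/kg, as they did in 15.6% of all genes tested (2567 genes). The exceptions were Cyp2e1 and Slc16a6. The contrast of the same 6 libraries chose the 76 genes, so their separation is a description and not further support. When each of the 6 libraries was left out in turn, 24 of the 76 genes passed in every fit, 11 of them higher and 13 lower. With a further 8 ways of fitting, among them DESeq2, limma voom and a fit of the 6 libraries alone, 15 genes passed throughout. The 8 of these that were higher were Cyp1b1, Cyp1a1, Ahrr, Acta1, Wfikkn2, Tiparp, Pam and Selenbp1, and the 7 lower were Pcdh17, Gm8989, Sstr1, Otc, Sult1a1, Nid2 and Sult1c2. The number called ran from 33 without 3 μg/kg replicate 49 to 142 without 30 μg/kg replicate 65, and was 44, 40, 42 and 45 without replicates 51, 52, 66 and 67. Tested against a fold of 1.5 in place of 0 change, 11 genes passed.

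AhR target genes were the group with the largest rises. Of 27 listed feedback and target genes 19 were tested, and 5 were called higher, against 0.218% of all genes: Cyp1b1, Cyp1a1, Ahrr, Tiparp and Selenbp1. None was called lower, and the median log2 fold change of the 19 was 0.41, against 0.0025 over all genes. The promoters of 4 of the 5 are shown, with those of the repressed genes Pcdh17 and Sult1a1, so that a reader can see windows with and without the core letters of the dioxin response element. They were chosen after the results were known and do not stand for all called genes. Each sequence is the 300-base window from 250 bases before to 50 bases after the RefSeq start on GRCm38.p6, written 5′ to 3′ on the strand of the gene, with GCGTG or its reverse complement CACGC in capitals. The windows are chr9:57697363-57697662 on the plus strand for Cyp1a1, chr17:79715012-79715311 on the minus strand for Cyp1b1, chr13:74292282-74292581 on the minus strand for Ahrr, chr3:65528197-65528496 on the plus strand for Tiparp, chr14:84443313-84443612 on the plus strand for Pcdh17 and chr7:126676369-126676668 on the minus strand for Sult1a1.
Cyp1a1: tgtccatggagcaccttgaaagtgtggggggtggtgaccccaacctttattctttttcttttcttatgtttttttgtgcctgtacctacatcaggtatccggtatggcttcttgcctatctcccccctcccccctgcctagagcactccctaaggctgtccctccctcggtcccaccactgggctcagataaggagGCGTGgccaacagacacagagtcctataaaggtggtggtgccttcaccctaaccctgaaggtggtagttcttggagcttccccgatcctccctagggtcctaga
Cyp1b1: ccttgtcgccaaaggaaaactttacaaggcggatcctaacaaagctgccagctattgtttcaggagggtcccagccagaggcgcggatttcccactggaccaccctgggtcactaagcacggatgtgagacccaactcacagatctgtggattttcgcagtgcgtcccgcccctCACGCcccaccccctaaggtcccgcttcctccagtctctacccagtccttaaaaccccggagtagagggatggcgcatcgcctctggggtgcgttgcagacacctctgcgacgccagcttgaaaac
Ahrr: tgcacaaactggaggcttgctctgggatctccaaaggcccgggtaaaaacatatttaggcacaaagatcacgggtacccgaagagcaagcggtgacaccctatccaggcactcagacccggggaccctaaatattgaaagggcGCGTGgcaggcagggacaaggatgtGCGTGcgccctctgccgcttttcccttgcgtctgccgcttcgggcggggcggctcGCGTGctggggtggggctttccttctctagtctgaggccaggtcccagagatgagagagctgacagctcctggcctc
Tiparp: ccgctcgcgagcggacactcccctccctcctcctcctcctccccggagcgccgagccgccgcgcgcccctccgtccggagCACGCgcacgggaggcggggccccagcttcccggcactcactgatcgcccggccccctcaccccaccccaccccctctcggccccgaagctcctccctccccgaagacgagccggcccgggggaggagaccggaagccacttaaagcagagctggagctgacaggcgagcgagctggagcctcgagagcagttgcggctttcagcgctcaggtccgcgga
Pcdh17: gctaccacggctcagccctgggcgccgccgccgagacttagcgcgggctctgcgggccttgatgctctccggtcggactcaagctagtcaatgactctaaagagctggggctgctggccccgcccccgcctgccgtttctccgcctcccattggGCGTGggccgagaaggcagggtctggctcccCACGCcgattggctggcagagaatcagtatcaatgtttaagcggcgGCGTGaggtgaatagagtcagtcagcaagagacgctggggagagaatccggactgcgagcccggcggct
Sult1a1: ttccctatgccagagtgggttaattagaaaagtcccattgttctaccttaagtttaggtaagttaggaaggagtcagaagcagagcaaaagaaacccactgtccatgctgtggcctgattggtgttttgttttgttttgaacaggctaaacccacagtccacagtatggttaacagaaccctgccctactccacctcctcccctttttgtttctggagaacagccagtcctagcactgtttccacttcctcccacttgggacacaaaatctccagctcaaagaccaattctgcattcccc

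The windows of Ahrr and Pcdh17 held the core 3 times each, those of Cyp1a1, Cyp1b1 and Tiparp 1 time each, and that of Sult1a1 0 times. The windows of Gpr135, Acta1 and Wfikkn2, which rose more than Tiparp and are not shown, also held 0. All of these cores lay upstream of the start, between 19 bases (Pcdh17) and 170 bases (Tiparp) from it. A promoter was found for 22 of the 36 genes called higher and for 28 of the 40 called lower, while Lgr5 and Sstr1 were among those without an entry. The core was found on either strand in 13 of the 22 (59.1%) and in 11 of the 28 (39.3%). It was found in 53.8% of the 11304 tested genes with a promoter, where a gene with several windows counted if any held it, and in 32.4% of all 32851 windows of the same length. The letters are a match in a window and do not mark a bound site.

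Cyp1b1 (ENSMUSG00000024087, chromosome 17, 79701537 to 79715061) encodes a P450 enzyme that oxidizes polycyclic aromatic hydrocarbons and estrogens. It was at 1.75, 2.14 and 2.02 CPM in the mice at 3 μg/kg and at 246.1, 286.4 and 223.9 CPM at 30 μg/kg. The groups were far apart, and each mouse at 30 μg/kg had at least 2597 counts against at most 26. The gene was induced 127-fold (log2 fold change 6.99, SE 0.28, adjusted p = 4.5e-14). Vehicle-treated mice had 0.134 ± 0.055 CPM (SD, n = 3).

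Cyp1a1 (ENSMUSG00000032315, chromosome 9, 57687928 to 57703824) encodes the P450 enzyme most often used as a marker of AhR activation. Its level at 3 μg/kg was 50.6, 139.8 and 58.9 CPM, with replicate 51 above the other 2 mice. At 30 μg/kg it was 2106, 2427 and 2066 CPM, so the groups did not overlap, and the mice at the higher dose differed by less than those at the lower dose in relative terms. The induction was 26.5-fold (log2 fold change 4.73, SE 0.28, adjusted p = 1.1e-10). Its paralog Cyp1a2 was too low to be tested, with 0 counts in each mouse at 3 μg/kg and 3 to 7 counts at 30 μg/kg.

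Ahrr (ENSMUSG00000021575, chromosome 13, 74211118 to 74292331) encodes the AhR repressor, which competes with AhR for ARNT. It had 4.50, 7.46 and 5.74 CPM at 3 μg/kg and 138.7, 147.6 and 109.5 CPM at 30 μg/kg. All mice at the higher dose lay above all at the lower dose, and the gene was induced 22.3-fold (log2 fold change 4.48, SE 0.20, adjusted p = 3.3e-13). Vehicle-treated mice were at 1.77 ± 0.352 CPM (SD, n = 3).

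Tiparp (ENSMUSG00000034640, chromosome 3, 65528410 to 65555518), which encodes an ADP-ribosyltransferase that limits AhR activity, also rose. Its level went from 21.9, 24.1 and 27.9 CPM at the lower dose to 62.4, 57.2 and 48.7 CPM at the higher dose without overlap, a log2 fold change of 1.19 (SE 0.16, adjusted p = 0.00016). At 3 μg/kg its mean of 24.6 CPM was within 1 SD of the vehicle mean of 27.3 ± 4.90 CPM (SD, n = 3). A pseudogene on the opposite strand inside Tiparp, 4931440P22Rik, had 14 to 40 counts in the 6 libraries against 238 to 867 for Tiparp.

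Selenbp1 (ENSMUSG00000068874, chromosome 3, 94933056 to 94944758), which encodes a methanethiol oxidase, had the tightest replicates of the 5. It was at 700.7, 696.6 and 731.6 CPM at 3 μg/kg and at 1168, 1122 and 1124 CPM at 30 μg/kg. The rise was 0.68 in log2 units (SE 0.12, adjusted p = 0.0057), close to the threshold of 1.5-fold at a fold of 1.604. It was called in every fit with a library left out, with estimates between 0.66 and 0.70.

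The other tested AhR targets did not pass. Nqo1, a quinone reductase of the classical AhR battery, had 75.7, 71.8 and 82.0 CPM at 3 μg/kg and 90.7, 125.2 and 89.9 CPM at 30 μg/kg. The groups did not overlap, but the log2 fold change of 0.41 (SE 0.22, adjusted p = 0.51) was not past the threshold. The UDP-glucuronosyltransferase gene Ugt1a7c (0.43, adjusted p = 0.40), the P450 gene Cyp2s1 (0.35, adjusted p = 0.23) and the flavin monooxygenase gene Fmo2 (1.17, adjusted p = 0.13) gave positive estimates that did not pass either. In 12 of the 19 genes all mice at 30 μg/kg lay above all mice at 3 μg/kg, as they did in 7.97% of all genes tested. The remaining 8 listed targets were too low to be tested, among them Aldh3a1 and Il22, of which Il22 had 0 counts in all 6 libraries.

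No gene of the receptor or its partners was called. Of the 7 tested, among them Ahr, Arnt, Arnt2, Hsp90aa1, Hsp90ab1 and Ptges3 (the p23 gene), 0 were called, and 1 had an unadjusted p under 0.05. Ahr had 28.7, 28.6 and 21.8 CPM at 3 μg/kg and 32.2, 27.7 and 27.9 CPM at the higher dose (log2 fold change 0.15, SE 0.13, adjusted p = 0.73). Arnt averaged 63.1 CPM at 3 μg/kg and 61.8 CPM at the higher dose (log2 fold change -0.03, SE 0.07, adjusted p = 0.91).

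**Figure D2:**
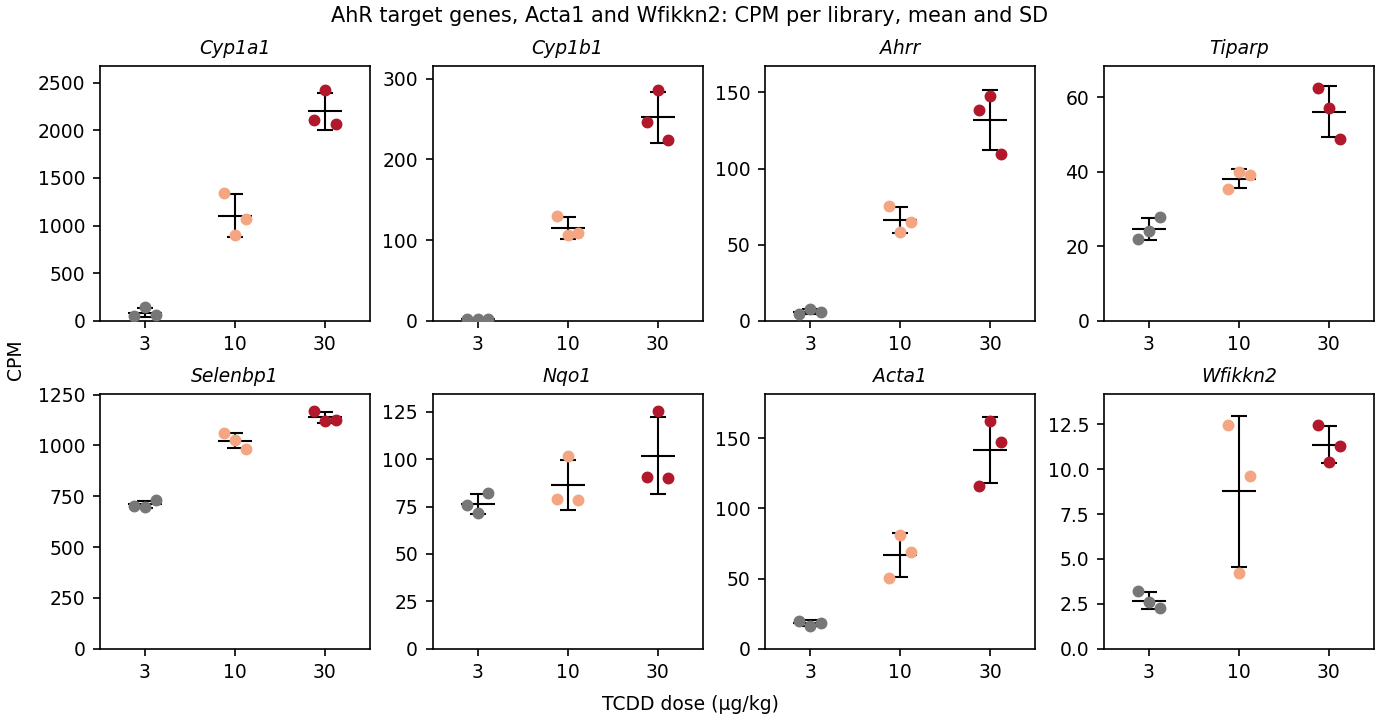
CPM (vertical axes, from 0, a scale per gene) in each of the 3 mice at 3, 10 and 30 μg/kg TCDD (horizontal axes) for 6 AhR target genes, Acta1 and Wfikkn2, with the mean (long bar) and SD (whiskers, n = 3). Cyp1a1, Cyp1b1 and Ahrr stayed near the axis at 3 μg/kg and rose at both further doses, while the 3 mice of Nqo1 at 30 μg/kg lay between 89.9 and 125.2 CPM.

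Drug metabolism outside the AhR targets changed in few genes. Of 35 tested phase II genes 3 were called lower (Sult1a1, Sult1c2 and Gstm3), against 0.242% of all genes, and 0 higher. The list as a whole was level, with 18 positive estimates and a median log2 fold change of 0.00078. Sult1a1 (ENSMUSG00000030711), a cytosolic sulfotransferase that conjugates phenols, had 174.7, 167.9 and 165.6 CPM at 3 μg/kg and 81.1, 47.6 and 76.0 CPM at 30 μg/kg. The groups were well separated, replicate 66 was the lowest, and the log2 fold change was -1.31 (SE 0.16, adjusted p = 4.4e-05). It overlaps Sgf29 on the opposite strand, which had 170 to 226 counts against 569 to 2135, and the sources used here do not say if strand was used in counting. Sult1c2, a second sulfotransferase gene, had 30.1, 29.0 and 31.1 CPM at 3 μg/kg and 16.3, 13.9 and 14.4 CPM at 30 μg/kg, and fell by 1.02 in log2 units (SE 0.13, adjusted p = 8.3e-05). Gstm3, a glutathione transferase gene, fell by 0.86 (SE 0.19, adjusted p = 0.037), but passed in only 1 of the 6 fits with a library left out.

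Among 30 tested P450 genes outside the Cyp1 family, 2 were called higher and 0 lower, against 0.218% and 0.242% of all genes. Cyp2e1, which oxidizes ethanol and other small solvents, had 6.16, 3.95 and 0.93 CPM at 3 μg/kg and 3.96, 24.7 and 52.8 CPM at 30 μg/kg. Its groups overlapped, since replicate 65 lay within the range of the mice at 3 μg/kg, and its log2 fold change of 2.90 (SE 0.68, adjusted p = 0.049) passed in only 1 of the 6 fits with a library left out, that without replicate 65. The adipocyte gene Cfd followed the same libraries, with 3.24, 14.7 and 51.7 CPM at 30 μg/kg. With a score of muscle, matrix and adipocyte genes, Cfd among them, as a covariate, Cyp2e1 was not called. The part of Cfd in the Cyp2e1 result was not tested beyond that fit. Cyp27a1, the sterol 27-hydroxylase, was at 17.8 to 20.2 CPM at 3 μg/kg and 22.3, 43.7 and 44.3 CPM at the higher dose (log2 fold change 0.97, SE 0.22, adjusted p = 0.037). Cyp27a1 also passed in only 1 of the 6 fits with a library left out, and limma voom did not call it. Of 23 NRF2 antioxidant genes 0 were called, and 1 had an unadjusted p under 0.05. Gpx2, a gut glutathione peroxidase, was the nearest (log2 fold change -0.67, adjusted p = 0.14).

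Outside xenobiotic metabolism, the largest called rises with non-overlapping groups were in genes of diverse function. Acta1 (ENSMUSG00000031972, chromosome 8, 123891769 to 123894751), which encodes skeletal muscle α-actin, had 19.95, 16.1 and 18.6 CPM at 3 μg/kg and 116.4, 162.4 and 147.1 CPM at 30 μg/kg. All mice at 30 μg/kg were far above those at 3 μg/kg, and the gene was induced 7.79-fold (log2 fold change 2.96, SE 0.22, adjusted p = 1.0e-08). Actins are near-identical in coding sequence, so reads of Acta1 can be split with or set aside for its paralogs, and its level is uncertain to that extent. It was the only smooth muscle list member called of 18 tested, where 0.218% of all genes were called higher. Of the 18, 17 had a positive estimate, with a median of 1.06. The defining genes did not pass, as with Cnn1 (1.30, SE 0.82, adjusted p = 0.60) and Myh11 (1.07, SE 0.80, adjusted p = 0.68). The summed level of the 18 genes, Acta1 included, ran from 628 to 856 CPM at 3 μg/kg and from 775 to 1608 CPM at 30 μg/kg. Cnn1 was at 16.9, 5.77 and 34.1 CPM in the 3 mice at 30 μg/kg. Acta1 was called with a muscle, matrix and adipocyte score as a covariate, a score that includes Acta1 itself. The part of muscle content in the Acta1 rise was not tested.

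Wfikkn2, which encodes a secreted protein that binds myostatin and GDF11, had 3.22, 2.57 and 2.25 CPM at 3 μg/kg and 12.4, 10.4 and 11.3 CPM at 30 μg/kg. The rise was 2.09 in log2 units (SE 0.29, adjusted p = 0.00034), and it passed in each fit with a library left out. Gpr135, an orphan G protein-coupled receptor gene, had 2, 0 and 4 counts at 3 μg/kg and 29, 20 and 38 counts at 30 μg/kg, so that its log2 fold change of 3.71 (SE 0.66, adjusted p = 0.0057) rests on few reads. Adcyap1r1, the receptor gene for the neuropeptide PACAP, was likewise low, at 0.28, 0.86 and 0.70 CPM against 2.301, 1.25 and 4.22 CPM (log2 fold change 2.05, SE 0.43, adjusted p = 0.023), and DESeq2 and limma voom did not call it.

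Sod3, the extracellular superoxide dismutase, had 2.85, 2.14 and 1.94 CPM at 3 μg/kg and 7.12, 8.87 and 7.41 CPM at the higher dose (log2 fold change 1.76, SE 0.37, adjusted p = 0.025). Cyfip2, a subunit of the actin-regulating WAVE complex, had 5.79, 5.66 and 6.05 CPM against 12.6, 21.9 and 24.3 CPM (1.74, SE 0.32, adjusted p = 0.0067). Gal3st2c, a galactose 3-O-sulfotransferase gene with close paralogs, had 20.5, 24.4 and 22.1 CPM against 67.8, 84.7 and 53.9 CPM (1.62, SE 0.29, adjusted p = 0.0057). In each of these 3 genes every mouse at 30 μg/kg was above every mouse at 3 μg/kg. Sod3 passed in 1 of the 6 fits with a library left out, though in all 8 other ways of fitting. Cyfip2 and Gal3st2c passed in 5 of the 6 each. The called rises also held Slc6a20a, an imino acid transporter gene (1.38, adjusted p = 0.017), and Fam20c, the Golgi kinase that phosphorylates secreted proteins (1.30, adjusted p = 0.0072).

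Pam, which encodes the enzyme that amidates peptide hormones, had 197.1, 261.6 and 219.3 CPM at 3 μg/kg and 466.3, 544.8 and 480.0 CPM at 30 μg/kg, with no overlap (log2 fold change 1.14, SE 0.19, adjusted p = 0.0026). Gm37140, an unconfirmed transcript annotated inside Pam on the same strand, was called with it (1.24, adjusted p = 0.037), and since they overlap on 1 strand they cannot be counted as 2 independent rises. The clock genes named here did not pass, with Per2 at 0.83 (adjusted p = 0.43), Nr1d1 at -0.62 (adjusted p = 0.52) and Arntl at -0.20 (adjusted p = 0.91).

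The remaining called rises lay between 0.59 and 1.27 on the log2 scale. They included the fatty acid and epoxide metabolism genes Eci2 (0.59, adjusted p = 0.037) and Ephx2 (0.74, adjusted p = 0.037), the laminin gene Lama3 (0.81, adjusted p = 0.037), the retinol-binding protein gene Rbp2 (0.83, adjusted p = 0.049), the potassium channel gene Kcnh6 (1.27, adjusted p = 0.0024) and the glucocorticoid-induced Tsc22d3 (0.85, adjusted p = 0.032). Of these only Kcnh6 passed in all 6 fits with a library left out. Tsc22d3 was the only call among 18 tested glucocorticoid response genes, where 0.218% of all genes were called higher. Fkbp5 (0.18, adjusted p = 0.78) and Zbtb16 (1.77, adjusted p = 0.13) were not called.

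Endothelial Vwf (von Willebrand factor) was called higher (log2 fold change 0.99, SE 0.22, adjusted p = 0.032), as was Ptprb, the vascular endothelial phosphatase gene (1.10, SE 0.22, adjusted p = 0.014). Vwf passed in 1 of the 6 fits with a library left out and Ptprb in 2. Vwf was the only call among 13 tested endothelial markers, where 0.218% of all genes were called higher. All 13 had a positive estimate (median 0.69), with a summed level of 46.7 to 61.9 CPM at 3 μg/kg and 50.5 to 115.3 CPM at 30 μg/kg. The 18 adipocyte genes had 0 calls and a median of 1.12 (1061 to 1366 CPM against 1039 to 1950 CPM), the 29 fibroblast and matrix genes 0 calls and a median of 0.38, and the 10 enteric neuron and glia genes 0 calls and a median of 0.86. In these bulk scrapings a change in the number of cells of a type and in RNA per cell cannot be told apart, which also holds for the tuft cell and stem cell genes, and the part of these tissue markers in the called rises was not tested beyond the covariate. With the muscle, matrix and adipocyte score as a covariate 63 genes were called, 55 of them among the 76. The rises lost included Vwf, Cyp2e1, Cyp27a1, Tsc22d3, Ephx2, Rbp2, Eci2 and Adcyap1r1. Falls were lost as well, among them Siglecf, Avil, Ncapg, Cdc25b, Hist2h3b, 9130208D14Rik, Gm8979 and Gm27149.

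**Figure D3:**
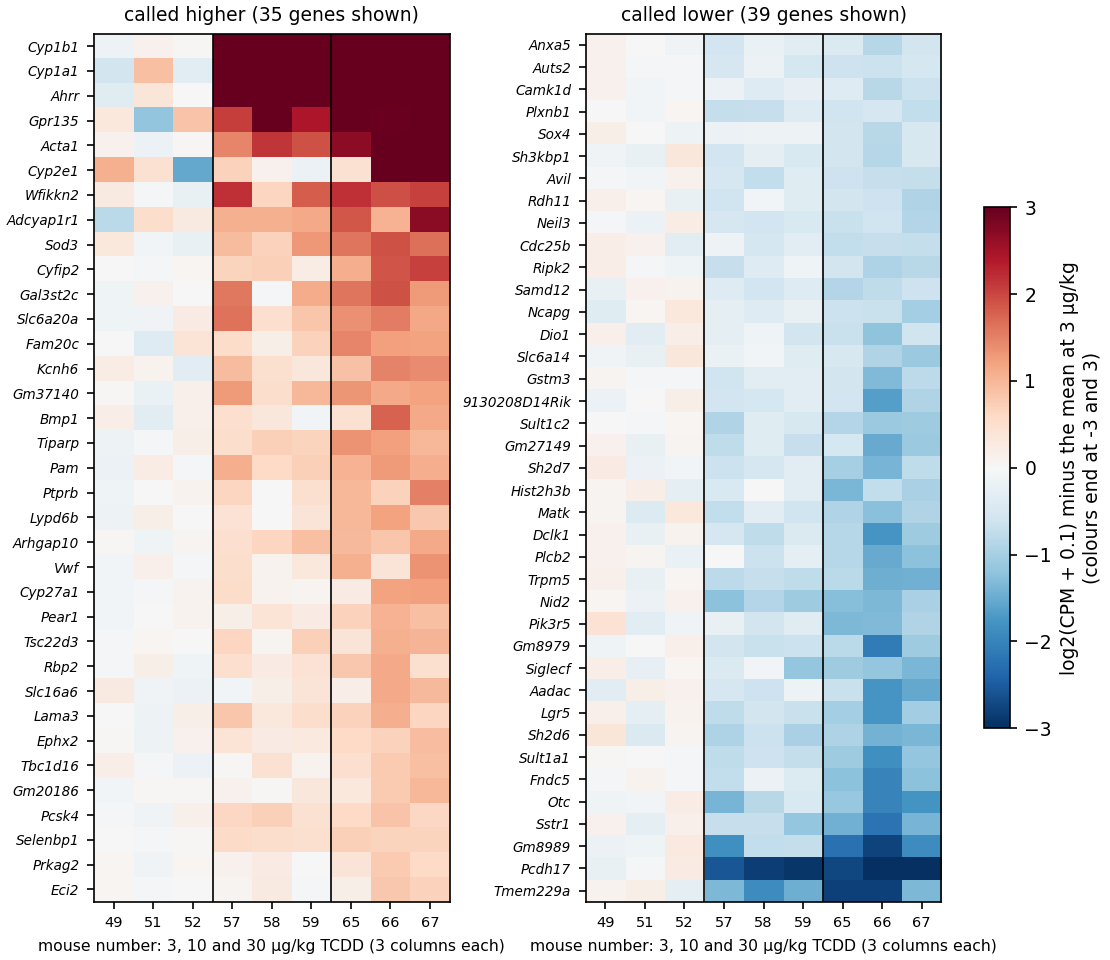
Heat map of 35 of the genes called higher and 39 of those called lower (1 row per gene, ordered by log2 fold change) in the 3 mice each at 3, 10 and 30 μg/kg TCDD (columns, named by mouse number). The colour gives log2(CPM + 0.1) minus the mean at 3 μg/kg of the gene, from -3 (dark blue) to 3 (dark red). Replicate 66 is the 30 μg/kg mouse farthest from the lower dose in 47 of the 76 genes.

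Pcdh17 (ENSMUSG00000035566, chromosome 14, 84443563 to 84539002), a protocadherin gene of cell adhesion, showed the largest fall at a mean of at least 1 CPM. It had 8.27, 9.43 and 11.5 CPM at 3 μg/kg and 1.37, 0.92 and 0.86 CPM at 30 μg/kg. No mouse overlapped with the other group, and the gene was repressed 9.09-fold (log2 fold change -3.18, SE 0.24, adjusted p = 1.0e-08). Vehicle-treated mice had 33.8 ± 0.837 CPM (SD, n = 3), so that the level at 3 μg/kg was already below them, though that comparison crosses the index sets.

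Further strongly repressed genes encode receptors, secreted proteins and enzymes. Sstr1, a somatostatin receptor gene, had 49.3, 37.0 and 49.7 CPM at 3 μg/kg and 16.5, 9.62 and 17.0 CPM at 30 μg/kg, and fell by 1.65 in log2 units (SE 0.21, adjusted p = 8.3e-05). Otc, the mitochondrial ornithine transcarbamylase of the urea cycle, had 11.7, 12.0 and 15.0 CPM against 5.75, 3.09 and 3.62 CPM, and fell by 1.62 (SE 0.20, adjusted p = 8.4e-05). Both passed in all 14 alternative fits. Fndc5, the gene of the irisin precursor, had 5.15, 5.75 and 5.20 CPM against 2.23, 1.25 and 2.24 CPM, and fell by 1.48 (SE 0.26, adjusted p = 0.0057).

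Aadac, an arylacetamide deacetylase of the endoplasmic reticulum, had 19.4, 27.4 and 26.1 CPM at 3 μg/kg and 15.1, 7.03 and 8.19 CPM at 30 μg/kg, and replicate 65 stood nearest to the lower dose (log2 fold change -1.26, SE 0.21, adjusted p = 0.0026). Nid2, a nidogen of the basement membrane, had 12.5, 10.6 and 13.1 CPM against 4.89, 4.68 and 6.03 CPM (-1.21, SE 0.19, adjusted p = 0.0018). Pik3r5, a regulatory subunit of phosphoinositide 3-kinase γ, fell by 1.22 (SE 0.20, adjusted p = 0.0024). Nid2 overlaps Rtraf on the opposite strand, which had 471 to 644 counts in the 6 libraries against 56 to 169 for Nid2, so reads from the 2 genes may not be fully separated.

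Slc6a14, a colonic amino acid transporter gene, was the only mature colonocyte gene called of 29, where 0.242% of all genes were called lower. It had 567.7, 523.2 and 779.5 CPM at 3 μg/kg and 439.9, 330.6 and 285.9 CPM at 30 μg/kg, with no overlap, and fell by 0.82 in log2 units (SE 0.15, adjusted p = 0.0066). Without replicate 52, 66 or 67 it was no longer called. Slc6a14 and Slc6a20a were the 2 genes called among 24 amino acid and monocarboxylate transporters, 1 in each direction, where 0.461% of all genes were called. Slc6a19, the neutral amino acid transporter gene, was at 1.79 (SE 0.43) with an adjusted p of 0.058.

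Tuft cell genes were the list with the most calls in 1 direction. Tuft cells are rare chemosensory epithelial cells that use the taste signalling pathway of TRPM5 and PLCB2 and release interleukin 25 and eicosanoids. Of 21 tested genes 7 were called lower, against 0.242% of all genes, and 0 were called higher. The called members included Dclk1, Trpm5, Plcb2, Sh2d6, Siglecf and Avil. The median log2 fold change of the 21 was -1.11, against 0.0025 over all genes, 19 of the 21 estimates were negative, and in 16 all mice at 30 μg/kg lay below all mice at 3 μg/kg, as they did in 7.6% of all genes tested. The list was written with falls of some tuft cell genes in these data already known, so its count is not independent evidence.

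Dclk1, the kinase gene most used as a tuft cell marker, had 32.2, 25.3 and 32.0 CPM at 3 μg/kg and 16.3, 8.61 and 14.1 CPM at 30 μg/kg. The mice at 30 μg/kg were all lower, replicate 66 the most, and the log2 fold change was -1.19 (SE 0.17, adjusted p = 0.00054). Trpm5, the taste transduction channel, had 17.2, 13.4 and 16.3 CPM against 8.85, 5.603 and 5.69 CPM, and fell by 1.21 (SE 0.18, adjusted p = 0.00071). Plcb2, the phospholipase upstream of it, had 4.60, 4.46 and 3.65 CPM against 2.301, 1.42 and 1.72 CPM, and fell by 1.203 (SE 0.23, adjusted p = 0.011). Trpm5 overlaps Tssc4 on the opposite strand, which had 92 to 116 counts against 66 to 210 for Trpm5.

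Sh2d6, an adaptor gene, fell by 1.27 (SE 0.24, adjusted p = 0.011). Siglecf, a sialic acid-binding lectin gene of eosinophils and tuft cells, fell by 1.25 (SE 0.27, adjusted p = 0.032), and Avil (advillin), an actin-severing protein of the tuft cell bundle, by 0.69 (SE 0.16, adjusted p = 0.038). Avil overlaps Tsfm on the opposite strand, which had 120 to 164 counts against 57 to 116 for Avil. Dclk1 and Trpm5 passed in all 6 fits with a library left out, Plcb2, Sh2d6 and Siglecf in 2 each and Avil in 0. With the 6 libraries alone, none of these genes was called. Plcb2, Siglecf and Avil were also lost within the second index set. Siglecf and Avil were further lost with limma voom and with the muscle, matrix and adipocyte score as a covariate. The defining transcription factor gene Pou2f3 had 3.03, 2.23 and 2.48 CPM at 3 μg/kg and 0.50, 0.92 and 1.38 CPM at 30 μg/kg, and its log2 fold change of -1.48 (SE 0.38) missed the threshold with an adjusted p of 0.078. Gnat3, the G protein of the taste pathway, was at -1.65 (SE 0.48, adjusted p = 0.13).

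Not all listed tuft genes moved with these. Ptgs1 (0.61, SE 0.23, adjusted p = 0.29) and Tas1r3 (0.31, SE 0.18, adjusted p = 0.58) had positive estimates, and Hepacam2, which goblet cells also express, was at -0.02 (SE 0.12, adjusted p = 0.97). Ptprc, which all leukocytes express, averaged 13.6 CPM at 3 μg/kg and 11.2 CPM at 30 μg/kg (log2 fold change -0.28, adjusted p = 0.75). The myeloid and granulocyte lists held no call other than Siglecf, where 0.242% of all genes were called lower. These were 0 of 20 macrophage and dendritic cell genes and 1 of 6 mast cell, eosinophil and neutrophil genes.

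Lgr5, the R-spondin receptor that marks crypt stem cells, had 9.38, 7.03 and 9.15 CPM at 3 μg/kg and 4.10, 2.43 and 4.05 CPM at 30 μg/kg. The groups did not overlap, and it fell by 1.27 in log2 units (SE 0.19, adjusted p = 0.00065). Lgr5 was called in each of the 6 fits with a library left out, but not with the 6 libraries alone. It was the only gene called of 19 crypt stem cell and Wnt feedback genes, whose median was -0.07, where 0.242% of all genes were called lower. Smoc2, another stem cell gene, was at -0.61 (SE 0.23, adjusted p = 0.29), Sox9 at -0.55 (SE 0.15, adjusted p = 0.11), Axin2 at -0.26 (SE 0.14, adjusted p = 0.50) and Ascl2 at -0.03 (SE 0.32, adjusted p = 0.98). Sox4, a transcription factor gene of epithelial progenitors, was called lower (60.5, 53.1 and 48.5 CPM against 37.0, 30.3 and 38.4 CPM, log2 fold change -0.62, SE 0.10, adjusted p = 0.0014).

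Cell cycle genes held 0 calls of 32, although 15 had an unadjusted p under 0.05 with a negative estimate, where 1810 of all genes tested (11%) had one in either direction. The median was -0.37. Cenpf, a mitotic kinetochore gene, had 33.7, 39.4 and 40.95 CPM at 3 μg/kg and 16.9, 17.2 and 16.6 CPM at 30 μg/kg, and just missed the threshold (log2 fold change -1.17, SE 0.28, adjusted p = 0.0502). Mki67 averaged 177.6 CPM and 99.7 CPM (-0.83, SE 0.24, adjusted p = 0.12). Outside the list, the condensin gene Ncapg (-0.80, adjusted p = 0.038), the mitotic phosphatase gene Cdc25b (-0.74, adjusted p = 0.049), the DNA glycosylase gene Neil3 (-0.73, adjusted p = 0.018) and the histone gene Hist2h3b (-1.05, adjusted p = 0.036) were called lower, though none of these 4 passed in all fits with a library left out. Ncapg overlaps Lcorl on the opposite strand, which had 490 to 972 counts against 75 to 214 for Ncapg.

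**Figure D4:**
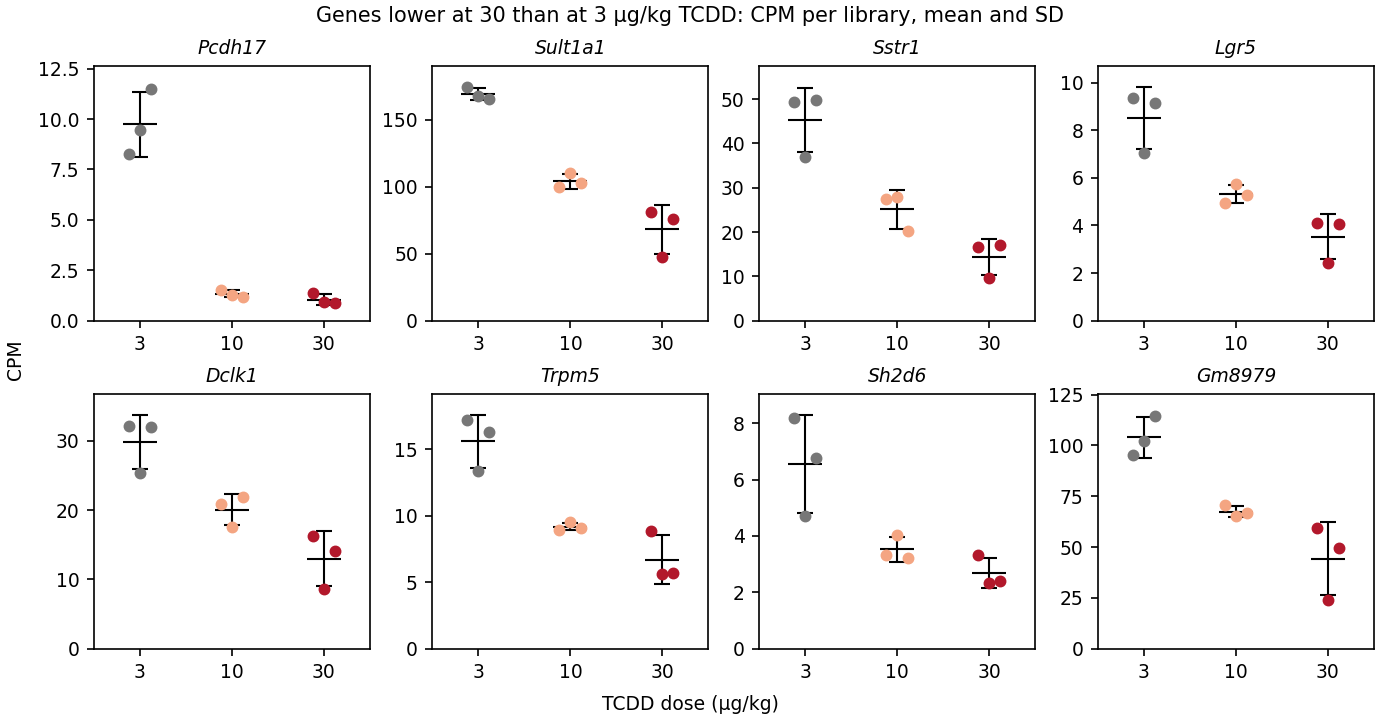
CPM (vertical axes, from 0, a scale per gene) in each of the 3 mice at 3, 10 and 30 μg/kg TCDD (horizontal axes) for 8 genes called lower, with the mean (long bar) and SD (whiskers, n = 3). Pcdh17 was already near its lowest level at 10 μg/kg, whereas Sult1a1, Sstr1, Lgr5, Dclk1 and Trpm5 were lower at each further dose.

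A set of 4 unprocessed pseudogenes that were called lower lies together on the minus strand of chromosome 7, between 105824223 and 106330688 on GRCm38. They were 9130208D14Rik, Gm8979, Gm27149 and Gm8989, and the stretch was singled out after their values were seen. Of the 14 genes annotated there these 4 were the only ones with enough reads to be tested. Gm8989 had 14.3, 14.8 and 19.7 CPM at 3 μg/kg and 3.31, 2.26 and 4.31 CPM at 30 μg/kg, and fell by 2.31 in log2 units (SE 0.38, adjusted p = 0.0024). Gm8979 had 95.1, 102.1 and 114.7 CPM against 59.2, 24.2 and 49.7 CPM, and fell by 1.23 (SE 0.26, adjusted p = 0.028). 9130208D14Rik fell by 0.98 (adjusted p = 0.04998) and Gm27149 by 1.02 (adjusted p = 0.049), and these 2 and Gm8979 were each lost in 5 of the 6 fits with a library left out, while Gm8989 passed in all 6. Such neighbouring copies can share reads, and reads with more than 1 alignment were set aside by the counting (30.7 to 33.7% of all counted alignments in the 6 tables), so their levels are uncertain and the 4 may not be independent.

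The group at 10 μg/kg, which also lay in the second index set, entered the fit but not the contrast. It allowed the called genes to be followed between the doses. Its mean lay between those at 3 and 30 μg/kg in 75 of the 76 called genes, and Cyp2e1 was the exception. All mice at 10 μg/kg lay past all mice at 3 μg/kg in 23 of the 36 genes called higher and in 26 of the 40 called lower. The step from 3 to 10 μg/kg was about as large as that from 10 to 30 μg/kg, with medians of 0.54 and 0.63 on the log2 scale over the rises and -0.49 and -0.48 over the falls. In 10 rises and 12 falls the 3 groups were wholly apart at both steps, among them Cyp1b1, Cyp1a1, Ahrr, Acta1, Tiparp and Selenbp1, and Dclk1, Trpm5, Lgr5, Sult1a1 and Sstr1. The groups at 3 and 30 μg/kg that chose these genes also enter the steps, so the steps are a description. The matching shares over all genes tested were not computed, so these counts do not measure an excess.

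A test of unequal steps, the change from 10 to 30 μg/kg minus that from 3 to 10 μg/kg, called 3 of 16496 genes (0.0182%), where 548 had an unadjusted p under 0.05. All 3 were AhR targets whose first step was the larger. Cyp1b1 averaged 1.97, 115.1 and 252.1 CPM at the 3 doses, and its second step was smaller than its first by 4.73 on the log2 scale (difference -4.73, SE 0.37, adjusted p = 9.9e-08). Cyp1a1 averaged 83.1, 1103 and 2200 CPM (difference -2.73, SE 0.40, adjusted p = 0.0033) and Ahrr 5.90, 66.03 and 131.9 CPM (difference -2.48, SE 0.29, adjusted p = 0.00012). Tiparp, by contrast, rose by 0.63 and 0.56 over the 2 steps (difference -0.07, SE 0.27, adjusted p = 1.00), and its steps were not told apart by the test. Pcdh17 averaged 9.73, 1.34 and 1.049 CPM, and its difference of 2.54 (SE 0.49, adjusted p = 0.14) did not pass.

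**Figure D5:**
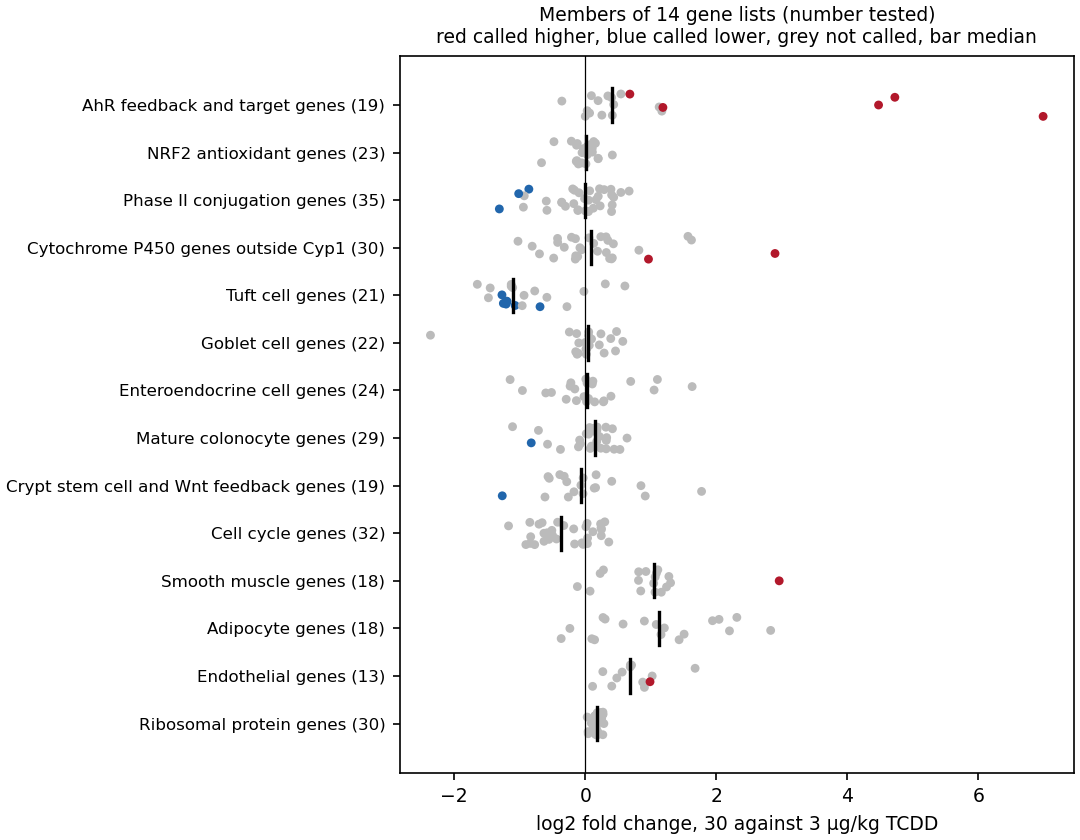
Log2 fold change of 30 against 3 μg/kg TCDD (horizontal axis) for each tested member of 14 gene lists (rows, number tested in brackets), in red where called higher, in blue where called lower and in grey otherwise, with a black bar at the median. The tuft cell genes have a median of -1.11, and the smooth muscle and adipocyte genes medians of 1.06 and 1.12 with 1 gene called between them.

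Several other groups held no call. Of 25 cobalamin handling and propionyl-CoA genes 0 were called, and Cubn, the cubilin receptor gene, had 58.01, 25.6 and 58.7 CPM at 3 μg/kg and 17.0, 9.20 and 20.8 CPM at 30 μg/kg. Its groups did not overlap, but its log2 fold change of -1.60 (SE 0.49, adjusted p = 0.16) did not pass. Of 22 goblet cell genes 0 were called, with Muc2 at -0.24 (adjusted p = 0.68), and the antimicrobial ribonuclease gene Ang4 had 59.7, 23.1 and 28.7 CPM at 3 μg/kg against 13.95, 2.93 and 4.22 CPM (-2.36, SE 0.73, adjusted p = 0.16). Of 24 enteroendocrine genes 0 were called, with a median of 0.02. The interferon-stimulated (37 tested), cholesterol synthesis (28), fatty acid oxidation (29), oxidative phosphorylation (37), tight junction (17) and Hox (25) genes also held 0 calls each. In the fatty acid oxidation list 23 estimates were positive and 6 negative (median 0.25). An unadjusted p under 0.05 was seen in 11 of the positive estimates and 0 of the negative ones. In the cholesterol list 25 estimates were negative and 3 positive (median -0.25), and 7 and 1 of these had such a p. Among all genes tested 11% had one in either direction. The 30 ribosomal protein genes had 0 calls and 30 positive estimates, with a median of 0.18 and a largest value of 0.28.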

How the data were processed

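Colonic epithelial RNA of the 27 mice was sequenced after library construction with the NuGEN Ovation Mouse kit and a DNase step. The authors deposited raw read counts per gene, not normalized, in 1 table per mouse, and the 6 tables used for the contrast hold 46078 genes each. Per the labels' processing notes, FastQC 0.11.3, Trimmomatic 0.33, TopHat2 2.1.0, SAMtools 1.2.0, HTSeq 0.6.1 and DESeq were used with GRCm38, while the strand setting and annotation release are not given in the sources used here. Reads on no feature made up 30.3 to 33.0% and reads with more than 1 alignment 30.7 to 33.7% of all counted alignments in the 6 tables, and were left out.

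Genes were kept by filterByExpr (minimum count 10) and scaled by TMM in edgeR 4.0.16 (R 4.3.3). All 27 libraries entered 1 quasi-likelihood fit with a mean per dose (18 residual degrees of freedom), and the contrast was 30 minus 3 μg/kg. P-values were adjusted by Benjamini-Hochberg over 16496 genes, and the SE is the absolute log2 fold change over the root of F. The 1.5-fold threshold follows the study, and an adjusted p replaces its posterior probability. On simulated counts for this contrast, with 200 of 16339 tested genes changed, 93% of 4-fold and 78% of 2-fold changes were recovered and 3 other genes were called. The simulated counts varied independently between genes. These figures therefore leave out differences that many genes of a library share, such as those of replicate 66. Symbols and coordinates were from GENCODE M21 and promoters from RefSeq, both on GRCm38. An exact permutation test of 3 against 3 cannot give a p under 0.1, so none was used.

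The naming rule took, from called genes without overlap whose mean reached 1 CPM, the 12 largest rises and the 12 largest falls. It added called members of any list, a fixed set (Cyp1a1, Cyp1a2, Cyp1b1, Ahrr, Tiparp, Nqo1, Ahr, Arnt, Cubn and the clock genes) and up to 4 members per list with the largest changes. Genes outside it, such as Pam, Kcnh6, Nid2, Sox4, the called cell cycle genes, the chromosome 7 pseudogenes and list members that did not pass, were picked with their values in view. Some genes that the rule names are not reported here. The comparison, members and 44 lists were chosen with earlier results of these data known. The alternatives were RLE factors, DESeq2 1.42.0, limma 3.58.1 (voom), no filter, fewer samples in the fit, 2 covariates, other thresholds and each of the 6 libraries left out.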

Additional observations from a re-analysis of the deposited data

How the results depend on the processing

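No paired analysis was possible because mouse numbers are unique and no number occurs in both groups. Of the 76 genes called, 73 were also called with RLE factors and 64 with limma voom, which called 68 genes in all. DESeq2 called 151 genes (78 higher, 73 lower) among 13598 with an adjusted p, 73 of them among the 76. Without a filter on low counts 148 were called (75 and 73) among 30487 tested, with the 6 libraries alone 32 (18 and 14, 22 of them among the 76), within the second index set 44 (22 and 22), with the Hox score as a covariate 154 (79 and 75, 74 of them among the 76), and with the fold tested against 1.5, 11 (6 and 5). Leaving out 1 library gave 33 to 142 genes in all, 14 to 81 higher and 19 to 61 lower. These fits tested more genes, since the filter follows the smallest group, and the cause of the changes was not tested. Unequal steps were called for 5 genes without the filter and for 3 to 5 with a library left out. No called gene changed direction in any of these fits, although Tmem229a was not tested with the 6 libraries alone. Cnn1 (-0.085, adjusted p = 0.975) and Myh11 (-0.38, adjusted p = 0.84) were negative with the muscle, matrix and adipocyte score as a covariate. Both genes are part of that score, so the fit takes out part of their own change. Arnt ranged from -0.061 without 30 μg/kg replicate 65 to 0.017 without replicate 66. Counting error limits genes of a few reads, such as Gpr135 and Tmem229a, and reads carry no molecular identifiers, so their number is not a number of molecules.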
